A study of Homo sapiens with 24 samples.

Results

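The genes described here are 42 gene names of glycolysis and of the response to hypoxia: 19 names of enzymes of glycolysis and of its branch into glycogen, 4 of enzymes that set the flux through it, 4 of components of the hypoxia-inducible factor (HIF) pathway, and 15 of other hypoxia targets. They were chosen by name from a list and not by a rule on their values, but earlier results of these data were known. PKM2 and PKM are an older and the present symbol of 1 gene, pyruvate kinase M, and only PKM2 was listed, so the names stand for 41 genes. Each of the 4 deposited tables listed 40 of the names. A gene was kept in a table when its mean normalised read count there was at least 10, which held for 40 members of 13887 genes in the table of HCT116 5/4, 40 of 13869 in HCT116* 8/3 c7, 39 of 13278 in the table of RPE1 5/3 12/3 and 40 of 13101 in that of RPE1* 21/3. In every one of the 4 tables at once, 38 members of 11939 genes were kept, 18 enzymes and 20 other members.

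Glycolysis splits glucose into pyruvate in the cytosol and yields ATP without oxygen. Hexokinase traps glucose in the cell, phosphofructokinase commits it to the pathway, GAPDH carries out the oxidative step, pyruvate kinase makes the last ATP and lactate dehydrogenase regenerates the NAD+ that GAPDH uses. When oxygen is short, the prolyl hydroxylases encoded by EGLN genes no longer mark the HIF alpha subunits for destruction, and HIF then binds short sites with the core RCGTG (R is A or G) near many glycolytic genes and near genes for angiogenesis, pH control, mitophagy and collagen modification. Several steps have isoenzymes from separate genes, and tissues differ in which one they use.

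The study asked how cells respond to the gain of a whole chromosome. The part of it used here compared 4 aneuploid human cell lines with the lines they were made from, with 3 libraries of each of 8 lines, 24 in all. HCT116 is a near-diploid colon carcinoma line, and RPE1 is a near-diploid line from retinal pigmented epithelium made immortal with hTERT. In their names the number before the slash is a chromosome and the one after it the copies of it. HCT116 5/4 is therefore tetrasomic for chromosome 5 and HCT116* 8/3 c7 trisomic for chromosome 8, while RPE1 5/3 12/3 is trisomic for chromosomes 5 and 12 and RPE1* 21/3 for chromosome 21. The asterisk marks lines, aneuploid and parental alike, that express histone H2B fused to GFP. HCT116 5/4 was received from another laboratory, as was its parental HCT116 by the paper's list of lines, which gives HCT116* another origin. In the other lines the extra chromosomes were introduced by microcell transfer, except that chromosome 12 in RPE1 5/3 12/3 was gained spontaneously, and HCT116* 8/3 c7 is 1 clone. All lines grew in the same medium with serum, and no label gives a hypoxic culture.

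The tables hold no values of single libraries. The only measure used here is the mean of the normalised counts over the 3 parental and the 3 aneuploid libraries of a table, as the authors computed it, so each value below joins a parental line with its aneuploid derivative, has no spread and no test, and cannot be assigned to either of the 2 lines. The authors' comparisons of aneuploid with parental cells are not analysed here. The tables were normalised separately, and their sums of means lay between 1.89e+07 and 2.30e+07. Wherever 4 values follow each other, those of HCT116 5/4 and of HCT116* 8/3 c7 come first, and then those of RPE1 5/3 12/3 and of RPE1* 21/3. To set tables side by side a mean was divided by the sum of its table, and this level is given in ppm, parts per 1000000. Levels of different genes were compared after division by the length of the gene's exons, unless stated otherwise, and this is called the length-scaled level. The labels state 2.5e+07 reads for each library, but the counts that each one reached are not in these tables, so no counting error is given.

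The cell types behind the 2 backgrounds were checked with marker genes. Of 7 colorectal epithelium markers, 6 were listed in each HCT116 table, and their summed level in ppm was 5064 and 4437 there against 1395 and 1596 in the RPE1 tables. EPCAM, an epithelial adhesion protein, stood at 218 and 283 ppm in the HCT116 tables, at 0.207 in RPE1 5/3 12/3, and was not listed in RPE1* 21/3. CDH1 and CDX2 were listed in the HCT116 tables only, VIL1 in none, and KRT8 and KRT18 made up most of the sum in every table. KRT8 was at 3281, 2975, 853 and 885 ppm and KRT18 at 1458, 1030, 542 and 711. Of 12 markers of RPE1, 11 were listed in each RPE1 table, with a summed level of 26508 and 29120 ppm against 178 and 114 in the HCT116 tables. This sum was carried by VIM, FN1 and SPARC, genes of mesenchymal cells and matrix. Of 6 markers of the pigment epithelium of the eye in this list, 5 were listed in each RPE1 table, with a summed level of 67.0 and 63.0 ppm against 23.8 and 19.7 in the HCT116 tables. MITF, a transcription factor of pigment cells, carried it, at 62.5 and 59.5 ppm against 3.50 and 3.09, and BEST1 was also higher in the RPE1 tables. RPE65, which defines the tissue in the eye, was at 0.451 and 0.243 ppm, below the 14.9 and 9.67 in the HCT116 tables, PMEL was called lower, and TYR was not listed in any table.

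HIF cores stood in the promoters of most members. Of the 41 symbols, 37 had at least 1 promoter window in RefSeq on GRCh38.p14, 67 windows in all, and the 250 bases before each start were searched on both strands for ACGTG and GCGTG. Matches that overlap were each counted, so a palindromic site (ACGTG preceded by C) counts on each strand. At least 1 window held either core in 86.5% of the members, in 47.4% of all 27305 genes with a window and in 66.4% of 9370 genes that passed the minimum in all 4 tables. These 9370 were 81.1% of the genes so kept, the chromosome of NDRG1 and BNIP3L left out. For ACGTG alone the shares were 64.9%, 21.7% and 29.4%, and for GCGTG 56.8%, 36.2% and 54.9%. A gene with more windows has more occasions to hold a core. Counted by window, either core stood in 62.7% of the 67 windows of members and in 43.2% of all 35116 windows. By window the shares were 43.3% and 18.5% for ACGTG and 37.3% and 32.2% for GCGTG. Many members entered the list as known HIF targets, so these shares describe the list. Enzymes and other members had like shares, 83.3% of 18 and 89.5% of 19 for either core.

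The 4 windows printed here belong to members on which later comparisons turn. They were chosen after the values were seen: LDHA, whose share of lactate dehydrogenase transcripts was larger in the RPE1 tables, ALDOC, which was close to the minimum in them, and BNIP3 and PLOD2, which were higher in them. Each runs 5′ to 3′ on the strand of the gene and ends just before the start in RefSeq, and capitals mark the cores on either strand.
LDHA, first of 2 starts (chr11:18394313-18394562, + strand): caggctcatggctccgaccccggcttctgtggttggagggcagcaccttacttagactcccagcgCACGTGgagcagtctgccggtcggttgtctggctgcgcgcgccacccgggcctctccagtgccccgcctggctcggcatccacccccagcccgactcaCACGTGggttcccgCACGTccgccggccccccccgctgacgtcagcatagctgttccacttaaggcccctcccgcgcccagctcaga
ALDOC (chr17:28576896-28577145, - strand): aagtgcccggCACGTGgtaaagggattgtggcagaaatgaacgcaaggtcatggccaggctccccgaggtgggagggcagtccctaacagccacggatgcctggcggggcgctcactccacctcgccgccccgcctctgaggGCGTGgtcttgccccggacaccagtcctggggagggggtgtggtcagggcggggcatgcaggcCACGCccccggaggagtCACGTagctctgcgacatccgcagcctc
BNIP3 (chr10:131981924-131982173, - strand): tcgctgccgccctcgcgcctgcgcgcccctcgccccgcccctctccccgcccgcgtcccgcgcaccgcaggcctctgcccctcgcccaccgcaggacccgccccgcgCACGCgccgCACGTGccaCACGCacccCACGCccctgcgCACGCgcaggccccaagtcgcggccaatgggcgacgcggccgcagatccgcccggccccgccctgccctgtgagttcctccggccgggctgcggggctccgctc
PLOD2 (chr3:146161185-146161434, - strand): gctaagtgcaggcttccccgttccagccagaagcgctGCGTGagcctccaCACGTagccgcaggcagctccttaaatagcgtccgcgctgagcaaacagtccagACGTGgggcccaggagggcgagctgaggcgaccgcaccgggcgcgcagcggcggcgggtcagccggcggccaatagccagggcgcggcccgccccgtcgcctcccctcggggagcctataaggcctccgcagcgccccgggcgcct
The LDHA window held 5 matches of ACGTG, counted on both strands, and none of GCGTG. ALDOC held 3 and 2, BNIP3 2 and 4, and PLOD2 2 and 1. A match is a run of letters and not a site shown to be bound.

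The members took 2.04%, 1.81%, 2.69% and 2.35% of the summed means of the 4 tables, and the enzymes alone 1.88%, 1.69%, 2.38% and 2.0%. By length-scaled level GAPDH was the highest member in every table, at 9119.8, 8389, 14880.0 and 10247, and ranked 1, 2, 1 and 1 among all genes kept in that table. In the HCT116 tables ENO1, the main enolase, came next at 2441 and 2353. In the RPE1 tables pyruvate kinase (PKM2) came next at 3508 and 2792, ahead of ENO1 at 2596 and 2298. This order depends on the length used. Without division by length PKM2 was at 4032 ppm in HCT116 5/4, ahead of ENO1 at 2731. The order of the members was not recomputed with other lengths. The first 8 members in each table were the same 8 enzymes, GAPDH, ENO1, PKM2, ALDOA, LDHB, TPI1, PGAM1 and LDHA. Neighbours such as TPI1 and PGAM1 in RPE1 5/3 12/3, at 1909.9 and 1909, cannot be ordered without a spread. At the other end stood LOX in both HCT116 tables, at 1.22 and 0.528, ALDOC in RPE1 5/3 12/3, at 1.16, and PDK3 in RPE1* 21/3, at 0.203, among the members kept there. GAPDH has 65 annotated pseudogenes, and each read was kept at 1 location, so its level may hold or lack reads of those copies.

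**Figure D1:**
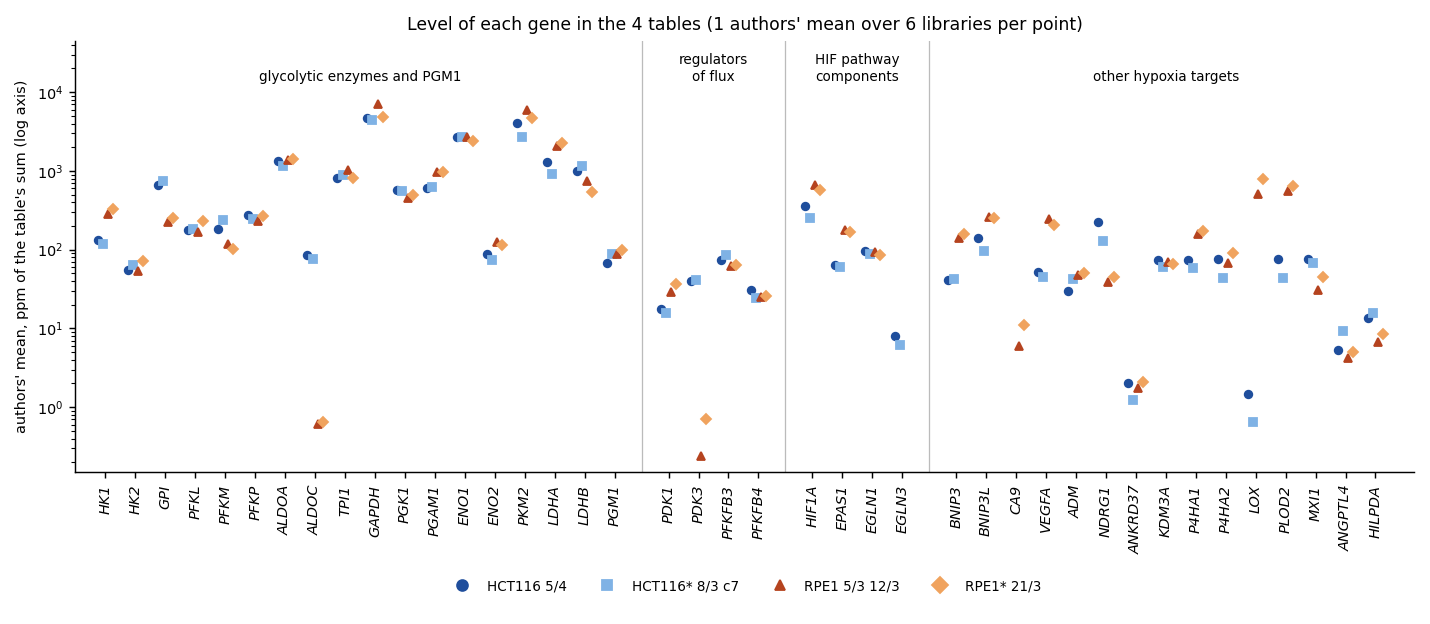
Level of each listed member in the 4 tables, on a log axis, in ppm of the table's sum of means. Each point is the authors' mean over 3 parental and 3 aneuploid libraries, with no spread. A missing point means that the table did not list the gene. ALDOC and PDK3 drop far below the HCT116 points in the RPE1 tables, and LOX does the reverse.

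The backgrounds were then compared. A gene was called higher or lower in RPE1 when its level in ppm differed at least 2-fold in the same direction in all 4 pairings of an RPE1 table with an HCT116 table. This is a rule of size and not a test. A mere lack of overlap between the backgrounds, given below for some genes, is a weaker rule. How many of all genes meet that weaker rule was not counted. Of all 11939 genes, 902 (7.56%) were called higher and 1862 (15.6%) lower. Of the 38 members 7 were called higher (HK1, EPAS1, BNIP3, VEGFA, P4HA1, LOX and PLOD2) and 3 lower (GPI, ALDOC and NDRG1). The median log2 difference, RPE1 minus HCT116, was -0.35 over all genes, so the scale itself is shifted towards lower values in RPE1. Centred on the median of all genes, 10.9% of all genes were called higher and 9.52% lower, and of the members 11 and 3, with LDHA, PDK1, HIF1A and BNIP3L added to the higher ones. The cell lines are bulk cultures, in which fewer cells of a kind and less RNA per cell cannot be told apart.

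The enzymes and the other members were described separately. The median log2 difference of the 18 enzymes was 0.12 and that of the 20 other members 0.45, against -0.35 for all genes. Of the enzymes 11 were above 0 before and 14 after centring, of the other members 13 and 16, and of all 11939 genes 4064 and 5942. Regardless of direction, 16.7% of the enzymes and 35% of the other members were called, beside 23.2% of all genes, and the median absolute difference was 0.48, 0.96 and 0.65 in these 3 groups. After centring 22.2% of the enzymes, 50% of the other members and 20.4% of all genes were called, with median absolute differences of 0.60, 1.07 and 0.58, so the enzymes lay below all genes on 1 scale and above on the other. The 14 other hypoxia targets had the widest range, from -2.02 for NDRG1 to 9.34 for LOX, and 5 of them were called higher and 1 lower. None of the 38 members reached 2-fold between the 2 RPE1 tables, where 2.0% of all genes did. Between the 2 HCT116 tables LOX did, against 3.64% of all genes.

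**Figure D2:**
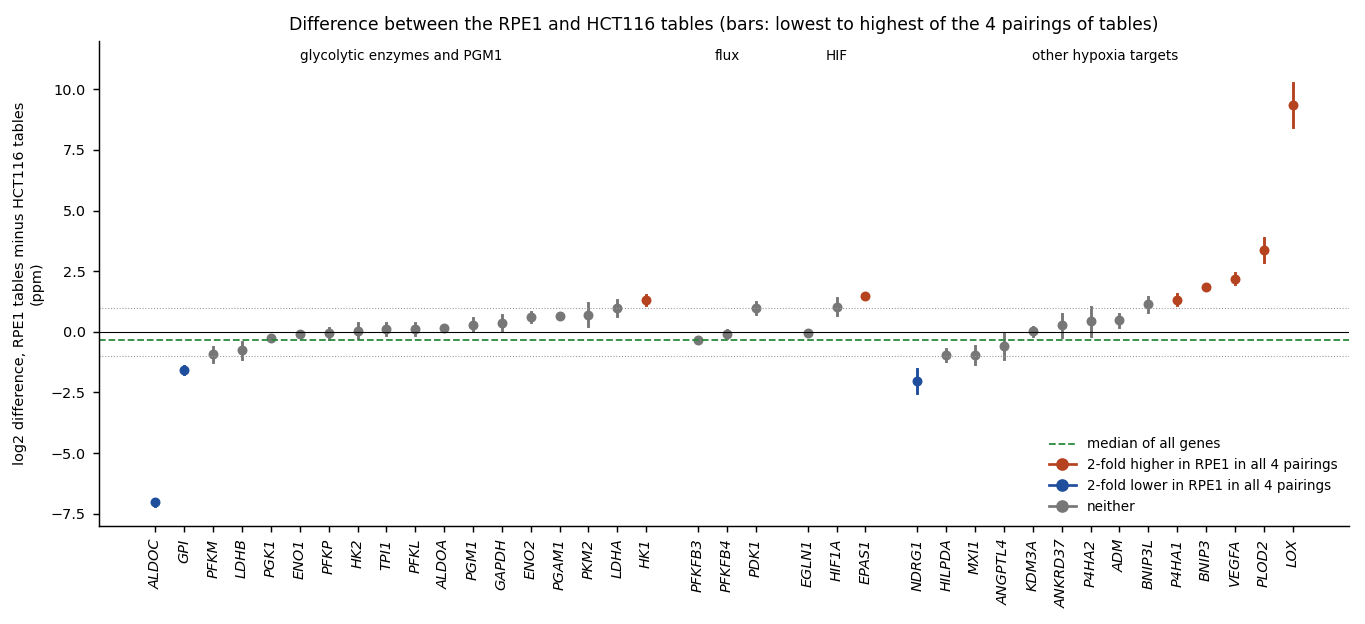
Log2 difference of the RPE1 tables minus the HCT116 tables for the 38 members kept in all 4 tables, from levels in ppm. Points are mean differences and bars run from the lowest to the highest of the 4 pairings of tables, which are not error bars of libraries. The dashed line is the median of all genes at -0.35 and dotted lines mark 2-fold. LOX at 9.34 and ALDOC at -7.03 stand far outside the others.

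The 3 enzymes called before centring stood in the upper part of glycolysis, and LDHA, added by centring, at its end. HK1, the hexokinase found in most tissues, was at 133, 118, 285 and 333 ppm, and both RPE1 values lay above both HCT116 values. The log2 difference was 1.30 (1.10 to 1.5 over the 4 pairings), or 2.46-fold. HK2, the inducible hexokinase and a classical HIF target, was at 55.8, 63.4, 52.9 and 70.9 ppm, with overlapping backgrounds. HK1 therefore made up 67.3%, 61.6%, 82.3% and 80.2% of the summed length-scaled level of HK1 and HK2. GPI, which turns glucose 6-phosphate into fructose 6-phosphate, was lower in RPE1, at 664, 755, 223 and 251 ppm, a log2 difference of -1.58 (-1.76 to -1.4), and remained called after centring (-1.24).

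Phosphofructokinase is a tetramer of liver (PFKL), muscle (PFKM) and platelet (PFKP) type subunits. PFKL was at 179.8, 182, 167 and 230.2 ppm and PFKP at 278, 244, 229 and 272, and for both the backgrounds overlapped. PFKM was at 183, 237, 119.5 and 101 ppm, lower in both RPE1 tables than in both HCT116 tables, with a log2 difference of -0.92 (-1.22 to -0.61) that missed the 2-fold rule. In shares of the length-scaled sum, PFKM made up 31.1%, 38.7%, 25.5% and 18.7% and PFKP 44%, 37.2%, 45.5% and 46.8%. PFKM led in HCT116* 8/3 c7 and PFKP in the other tables. With the longest transcript as length PFKP led in all 4.

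Of the 38 members ALDOC had the lowest difference. ALDOA, the main aldolase, was at 1339, 1147, 1362 and 1399 ppm, within 1.5-fold in all tables. ALDOC, the brain type aldolase, was at 86.5, 76.5, 0.605 and 0.644 ppm, a log2 difference of -7.03 (-7.16 to -6.89), and 0.08% of all genes lay lower. Its mean normalised counts were 1667, 1534, 13.9 and 12.2, so the RPE1 values lay just above the minimum of 10. ALDOC made up 8.65%, 8.90%, 0.0650% and 0.0674% of the summed length-scaled level with ALDOA. Of the exon bases of ALDOC 11.3% and of those of ALDOA 54.2% are shared with other annotated genes. The counting options that the authors list include none for strand.

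From triose phosphate to pyruvate no member was called on either scale. TPI1 was at 804, 899, 1032 and 824 ppm, GAPDH at 4687, 4412, 7133 and 4881, PGK1 at 565, 549, 453 and 494 and ENO1 at 2731, 2694, 2709 and 2383. These 4 had log2 differences from -0.24 to 0.38, and PGK1 and ENO1 changed sign after centring. PGAM1, phosphoglycerate mutase, was at 616, 626, 970.3 and 973 ppm, a log2 difference of 0.65 with the 4 pairings from 0.63 to 0.66. It has 13 annotated pseudogenes, and PGAM4, an intronless copy, differed by 0.64, so reads may have been split between them. ENO2, the neuronal enolase, was at 87.8, 73.1, 127 and 115 ppm with both RPE1 values above both HCT116 values (0.59), but ENO1 still made up 96.2%, 96.8%, 94.6% and 94.4% of enolase by length-scaled level. Pyruvate kinase (PKM2) was at 4032, 2669.6, 6015 and 4758 ppm, a log2 difference of 0.71, and the HCT116 tables themselves differed by -0.59. Its row counts all exons of the gene, so the splice forms M1 and M2 cannot be told apart. PGM1, which links glycolysis with glycogen, was at 67.0, 87.1, 88.0 and 99.1 ppm.

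While ENO1 led enolase in every table, the leading gene of lactate dehydrogenase by length-scaled level differed by background. LDHA, the form that favours making lactate from pyruvate, was at 1292, 909.8, 2047 and 2236 ppm, a log2 difference of 0.98 (0.66 to 1.30). LDHB, the heart form, was at 995, 1164, 747 and 543, with a log2 difference of -0.76 (-1.10 to -0.41). In neither case did the backgrounds overlap, and neither gene met the 2-fold rule in ppm. By length-scaled level LDHA made up 39.1%, 27.9%, 57.6% and 67.1% of the pair, so LDHB led in both HCT116 tables and LDHA in both RPE1 tables. The mean LDHA share of the 2 tables was 33.5% in HCT116 and 62.3% in RPE1, 41.0% and 69.6% with the longest transcript as length, and 50.2% and 76.9% without division by length, where LDHA led in HCT116 5/4 too. Of the exon bases of LDHB 33.4% are shared with another annotated gene.

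**Figure D3:**
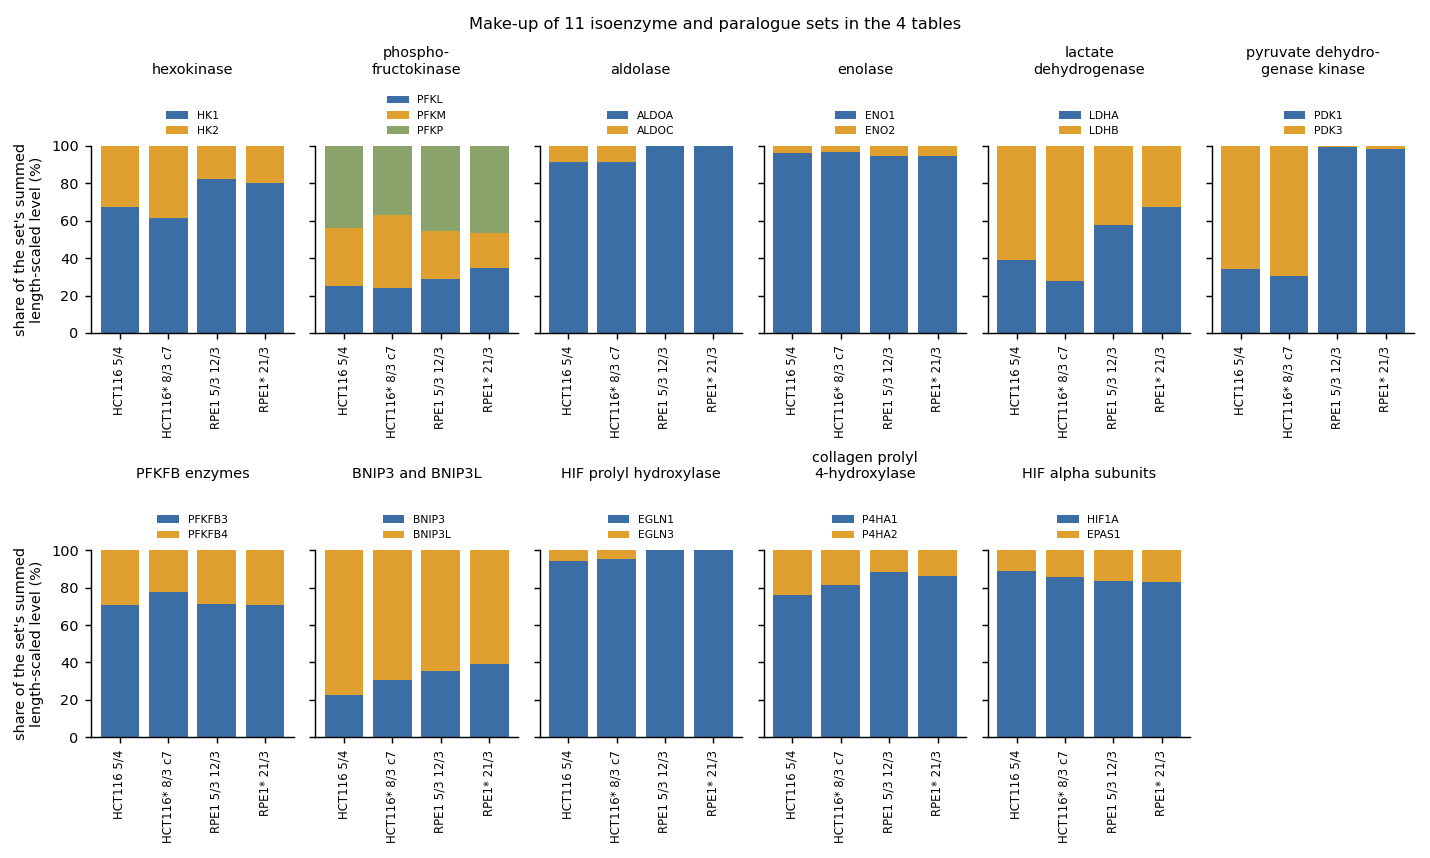
Share of each gene in the summed length-scaled level of its set (%), in the 4 tables, for 11 sets of isoenzymes or paralogues. Each bar is 1 table and adds up to 100. Within these pairs LDHB gives way to LDHA and PDK3 to PDK1 from the HCT116 to the RPE1 bars. PDK2 is not in the set.

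Among the regulators of flux the pyruvate dehydrogenase kinases differed most. These kinases switch off pyruvate dehydrogenase. PDK1, a HIF target, was at 17.5, 15.7, 28.9 and 36.6 ppm, with a log2 difference of 0.97 (0.73 to 1.22). PDK3 was at 39.7, 41.7, 0.239 and 0.703 ppm, with mean normalised counts of 766, 837, 5.51 and 13.3, so it lay below the minimum of 10 in RPE1 5/3 12/3, just passed it in RPE1* 21/3 and was left out of the calls. PDK1 made up 34.1%, 30.7%, 99.3% and 98.4% of the length-scaled sum of this pair. PDK2, which is outside the members, had length-scaled levels of 46.3, 44.2, 36.8 and 33.3. These lay above those of PDK1 (5.48, 4.82, 9.72 and 12.4) and of PDK3 (10.6, 10.9, 0.0686 and 0.203) in every table. In ppm, without division by length, PDK2 was at 54.3, 53.1, 40.3 and 36.2, just below PDK1 in RPE1* 21/3. PFKFB3 and PFKFB4, which make the activator of phosphofructokinase, were at 73.3, 85.1, 62.5 and 63.0 and 30.4, 24.7, 25.2 and 26.1 ppm, and the share of PFKFB3 in the pair overlapped between the backgrounds.

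Of the HIF alpha subunits EPAS1 was called higher in RPE1 on both scales and HIF1A on 1 of them. HIF1A was at 358, 249.6, 653 and 574 ppm, a log2 difference of 1.03 (0.68 to 1.39), which met the 2-fold rule only after centring. EPAS1, which encodes HIF-2 alpha, was at 63.2, 59.6, 179 and 166, a log2 difference of 1.49 (1.39 to 1.59). HIF1A remained the more abundant of the 2 in each table, with 88.9%, 85.6%, 83.8% and 83.1% of the length-scaled sum. HIF alpha is controlled mainly at the level of the protein, which was not measured here. EGLN1, the main oxygen sensing hydroxylase, was level at 95.5, 88.9, 93.2 and 84.5 ppm. EGLN3, a hydroxylase that is itself induced by HIF, was at 7.96 and 6.25 in the HCT116 tables and was not listed in the RPE1 tables. Of the exon bases of EGLN1 55.8% are shared with another annotated gene.

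Among the targets that modify collagen, LOX, PLOD2 and P4HA1 were called higher and P4HA2 was not. LOX, which cross-links collagen and elastin, was at 1.46, 0.648, 504 and 797 ppm, a log2 difference of 9.34 (8.43 to 10.26), with 99.97% of all genes below it. Its mean counts in the HCT116 tables were 28.2 and 13.0, near the minimum of 10. PLOD2, a lysyl hydroxylase of collagen, was at 75.3, 44.1, 557 and 636 ppm, 10.3-fold higher in RPE1, and P4HA1, a prolyl 4-hydroxylase subunit, was at 74.2, 59.2, 158 and 174, 2.50-fold higher. P4HA2 was at 76.2, 44.1, 67.2 and 90.5 with overlapping backgrounds, and P4HA1 led the pair with 76.1%, 81.5%, 88.5% and 86.3% of the length-scaled sum, although not in every table when length was left out. Of the 6 RPE1 markers kept in every table, 5 were called higher in RPE1 and 1 lower, PMEL (-2.91), with FN1 at 62.8, 33.7, 16005 and 19764 and COL1A1 at 35.8, 42.3, 161 and 184 ppm, and the part of these markers in the differences was not tested.

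Of the other targets, VEGFA, the main angiogenic factor, was at 51.5, 45.6, 244 and 203 ppm, a log2 difference of 2.20 (1.98 to 2.42), or 4.59-fold. BNIP3, a mitophagy receptor, was at 40.7, 42.0, 139.8 and 156, 3.58-fold higher in RPE1. It has 44 annotated pseudogenes. Its relative BNIP3L was at 141, 96.3, 262 and 251, called only after centring, and remained ahead of BNIP3 by length-scaled level in each table. NDRG1, a stress and differentiation gene that HIF induces, was the only one called lower, at 223, 129.8, 38.8 and 45.3 ppm, a log2 difference of -2.02 (-2.53 to -1.52). CA9, a carbonic anhydrase of the cell surface and a common hypoxia marker, was not listed in the HCT116 tables and stood at 5.95 and 11.1 in the RPE1 tables, with mean counts of 137 and 209. ADM, which encodes adrenomedullin, differed by 0.48, KDM3A, a histone demethylase, by 0.02, and ANKRD37, a small ankyrin repeat protein, by 0.26. Exon bases shared with another annotated gene made up 35.7% for CA9 and 40.3% for ANKRD37. MXI1, an antagonist of MYC, ANGPTL4, an inhibitor of lipoprotein lipase, and HILPDA, a lipid droplet protein, were lower on average, by log2 differences of -0.95, -0.60 and -0.95, and none was called. Hypoxia targets thus lay on both sides, and no direction is shared by all of them.

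Related genes outside the members were counted for comparison. In these 4 lists 20%, 22.2%, 22.2% and 21.7% of the genes kept were called in either direction, beside 23.2% of all genes, and after centring 20%, 33.3%, 22.2% and 21.7%, beside 20.4%. Of 18 names of other glycolytic isoenzymes 10 were kept in all 4 tables, 0 were called higher and 2 lower, ENO3 (-2.03), the muscle enolase, and GAPDHS (-1.45), the sperm form of GAPDH, the latter not after centring, where BPGM was called higher. Their median was -0.40. Of 12 transporters of glucose and lactate 9 were kept, with 1 called higher, SLC2A12 (1.89), and 1 lower, SLC2A6 (-2.14). SLC2A1, the main glucose transporter and a HIF target, was at 355, 243, 675 and 738 ppm, a log2 difference of 1.27, and was called higher only after centring. Of 11 other HIF pathway components 9 were kept and 2 called higher, CITED2 (2.96), which competes with HIF for its coactivator, and ARNT2 (2.01), a partner of HIF alpha. The VHL gene, whose product marks HIF alpha for destruction, differed by -0.59. Of 30 further hypoxia targets 23 were kept, with a median of 0.01, 4 called higher and 1 lower. Those called included STC2 (4.55) and LOXL2 (3.45) upwards and AK4 (-1.86) downwards, the last not after centring.

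Some members lie on gained chromosomes. TPI1 (chr12:6976283-6980112), GAPDH (chr12:6643678-6647540), ENO2 (chr12:7022909-7032861), LDHB (chr12:21788276-21910791) and PFKM (chr12:48498922-48540187, all on GRCh37) lie on chromosome 12, which has 3 copies in RPE1 5/3 12/3 and not in RPE1* 21/3. PFKL (chr21:45719934-45747259) lies on chromosome 21, for which the reverse holds. Since each mean joins 3 libraries with 2 copies and 3 with 3 copies, copy number alone would place a gene at -0.32 on the log2 scale in RPE1* 21/3 minus RPE1 5/3 12/3 if it lies on chromosome 12, and at 0.32 if it lies on chromosome 21. The median of 620 genes on chromosome 12 was -0.29 (quartiles -0.40 and -0.13), that of 104 genes on chromosome 21 was 0.40, and that of 10276 genes elsewhere 0.03.

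All 5 members on chromosome 12 were lower in RPE1* 21/3, and the upper quartile of all genes of that chromosome, -0.13, was also below 0. GAPDH was at 7133 ppm in RPE1 5/3 12/3 and 4881 in RPE1* 21/3 (-0.55), LDHB at 747 and 543 (-0.46), TPI1 at 1032 and 824 (-0.33), PFKM at 119.5 and 101 (-0.24) and ENO2 at 127 and 115 (-0.14). Their median was -0.33. GAPDH and LDHB lay in the lower part of their chromosome, with 9.68% and 16.5% of its genes below them, and ENO2 in the upper part, with 72.4% below it. PFKL was at 167 and 230.2 (0.46). The 2 RPE1 tables also differ in H2B-GFP and in chromosome 5, and these cannot be told apart from chromosome 12 in these values. The 30 members on chromosomes not gained in either table had a median of 0.13, with 8 of them below 0. All 10276 genes there had a median of 0.03, with quartiles of -0.11 and 0.18.

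Members on chromosomes 5 and 8 did not all follow their chromosome. LOX (chr5:121398890-121414108) and P4HA2 (chr5:131525840-131631008) lie on chromosome 5, of which the RPE1* 21/3 table holds fewer copies than the RPE1 5/3 12/3 table. The median of 509 genes there was -0.28, but LOX was at 0.66 and P4HA2 at 0.43. Between the HCT116 tables, of which the 5/4 table holds the extra copies, the chromosome median was -0.43 against -0.58 from copy number, and LOX and P4HA2 were at -1.17 and -0.79. BNIP3L and NDRG1 lie on chromosome 8, which has 3 copies in HCT116* 8/3 c7. The median of 388 genes there was 0.14 in HCT116* 8/3 c7 minus HCT116 5/4, against 0.32 from copy number, while BNIP3L was at -0.55 and NDRG1 at -0.78, with 3.61% and 1.80% of the genes of the chromosome below them. NDRG1 stood at 223 ppm in HCT116 5/4 and 129.8 in HCT116* 8/3 c7. Other members without an extra copy also differed between the HCT116 tables, among them PLOD2 (-0.77), ANKRD37 (-0.70) and PKM2 (-0.59) downwards and ANGPTL4 (0.76) upwards.

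**Figure D4:**
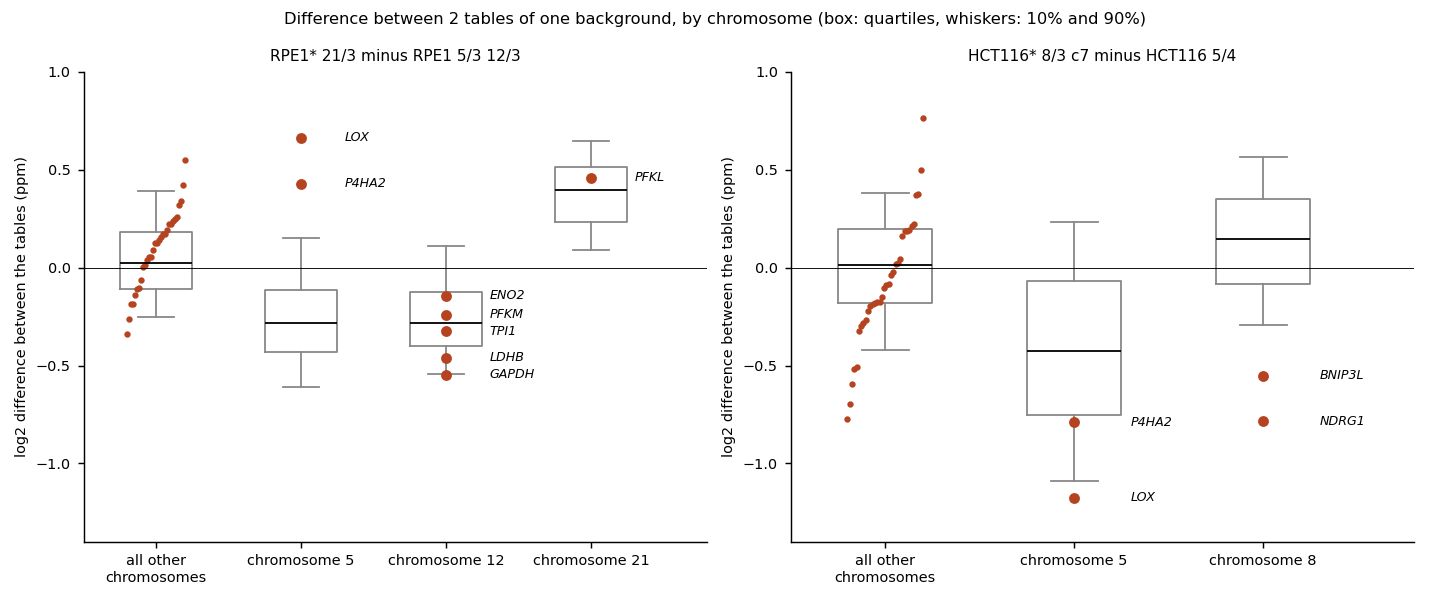
Log2 difference between the 2 tables of a background, from levels in ppm, for genes on the gained chromosomes and on all others. Boxes give quartiles and medians of all genes kept in all 4 tables, whiskers the 10% and 90% points, and red points the members. The 5 members on chromosome 12 lie below 0 and PFKL on chromosome 21 above it, while LOX and P4HA2 lie above the box of chromosome 5 on the left and BNIP3L and NDRG1 below that of chromosome 8 on the right.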

How the data were processed

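Total RNA of 24 libraries of 8 cell lines was sequenced. The authors removed adapters with cutadapt, mapped single reads to hg19 with TopHat2 2.0.10, keeping 1 location per read, counted them over exons of RefSeq genes with featureCounts 1.4.3 and normalised the counts with DESeq2. The deposited signal is the authors' mean normalised read count over the 6 libraries of a table. The 5 further measurement columns of each table hold the authors' own comparisons (fold change, standard error, statistic, p-value, adjusted p-value) and were not used. The labels state 2.5e+07 reads per library, but the counts reached by each library are not in these tables, so no precision could be computed.

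Genes were placed on GRCh37 (GENCODE v44lift37) by symbol or a RefSeq synonym, 94.7% to 95.2% of each table. Lengths are the union of the exons. Shared exon bases are from this annotation too, and not from the RefSeq genes over which reads were counted. Genes whose mean reached 10 in all tables were compared between backgrounds by a 2-fold rule over 4 pairings. No test was run, since there are no values of single libraries. The script of the fold rule was checked on simulated data. Promoter windows are from RefSeq. Alternatives were other scalings, folds, minimum means and gene lengths. All members are named. From other lists, the names are those with the largest differences in each direction (at most 3) and partners of isoenzyme sets. A gene of these lists is not reported here. BPGM, SLC2A1 and VHL were named after their values were seen. The members and lists were chosen with earlier results of these data known. Scripts ran in Python 3.11.15 with matplotlib 3.10.9, pandas 2.3.3 and numpy 2.4.6.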

Additional observations from a re-analysis of the deposited data

How the results depend on the processing

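Centring on the median of all genes raised the number of members called higher in RPE1 from 7 to 11, and moved the median log2 difference from 0.12 to 0.46 for the enzymes and from 0.45 to 0.80 for the other members, because the median of all genes moved from -0.35 to 0. A fold of at least 1.5 gave 12 members higher and 5 lower of 38, beside 12.2% and 29% of all genes, and a fold of at least 4 gave 2 (LOX and PLOD2) and 1 (ALDOC), beside 3.01% and 4.25%. The other 17 values of this kind, among them those with scaling by the 75th percentile, no filter on low means or a mean of at least 100, stayed within 1.5 times for a count and, for a median, within the median absolute difference between tables of a background (0.19 for enzymes, 0.23 for other members, 0.25 on chromosome 12), and no median changed sign. The enzyme median was 0.29 with 75th percentile scaling. Sets with 1 leading gene in all tables numbered 8, 9 with the longest transcript and 8 without length, where collagen prolyl 4-hydroxylase replaced phosphofructokinase among those that differ. Of 92 shares of isoenzymes recomputed with another length 51 moved by more than the gap between the 2 tables of their background, by up to 25.5 percentage points. No paired analysis was possible because the tables hold no values of single libraries, and for the same reason no library could be left out. Each value joins an aneuploid line with its parental line. Lines, clones and H2B-GFP differ between the tables of a background, and the paper's list of lines gives HCT116 and HCT116* different origins. A difference between tables cannot be assigned to any of these.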

Other observations

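Some genes of the related lists differed between the 2 tables of 1 background by more than any member kept in that background's tables did, and those given here were chosen after their values were seen. SLC2A3, a high-affinity glucose transporter, was at 28.6 ppm in HCT116 5/4 and 6.03 in HCT116* 8/3 c7, while the RPE1 tables held 29.0 and 26.8. AK4, a mitochondrial adenylate kinase, stood at 25.3 and 50.8 in the RPE1 tables. Between the RPE1 tables VLDLR, a lipoprotein receptor, was at 11.4 and 33.7, and HKDC1, a hexokinase relative, at 1.87 and 3.84. HKDC1 was at 1.67 and 0.577 and CA12, a carbonic anhydrase, at 3.64 and 8.51 in the HCT116 tables. The mean counts of HKDC1 there were 32.1 and 11.6, near the minimum of 10.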
